A study of Mus musculus with 18 samples.

Results

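Mature dendritic cells (DCs) in the densest of 4 collagen gels, at 4.4 mg/ml, were compared with the same kind of cells kept in suspension. The comparison took every library titled as 4.4 mg/ml collagen (3) and every suspension control library (6), which are 9 of the 18 RNA sequencing libraries of the series, and the biological replicate number entered the fit as a block. In all groups the DCs came from bone marrow of wild-type C57Bl6/J mice aged 8 to 12 weeks, grew with granulocyte-macrophage colony-stimulating factor (GM-CSF), and received 200 ng/ml lipopolysaccharide (LPS) on day 8 of differentiation, 24 h before they were loaded into migration chambers. The gel cells were embedded in hydrogels of bovine collagen and were exposed to a gradient of CCL19, the chemokine that calls mature DCs through the receptor CCR7, and the whole gel was lysed 5 h later. The suspension cells sat in the same chambers with no collagen. Of these 6 control libraries, 3 are titled as with and 3 as without CCL19, but in every replicate the library names say the reverse. Both kinds were therefore pooled, and the pooled comparison cannot tell a response to CCL19 from a response to the gel. Library names give 1 date and 1 sequencing lane to each replicate number. The same run code stands in the names of replicates 1 and 3, and another in those of replicate 2. The sources do not say whether a replicate is 1 mouse. The p-values rest on the spread left among all 18 libraries after the replicate block, and they do not measure a spread between mice. A GM-CSF culture holds other cells beside DCs.

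DCs take up antigen in tissues, and after a microbial signal such as LPS they mature, display peptide on major histocompatibility complex (MHC) molecules, and travel to lymph nodes. They move through collagen networks in an amoeboid way: the actin and myosin cytoskeleton squeezes the cell body and its nucleus through gaps between fibers, and these gaps are narrower in a denser gel. In the amoeboid cell the centrosome, the organelle that anchors the microtubules, has to follow the chosen path. The question that the comparison addresses is which transcripts differ when mature DCs spend hours in the most confining of these gels rather than free in medium.

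Promoters of 3 genes that are described below are shown here, because each holds the short DNA motif that is known to drive its gene family. Each run is the 150 bases before the start that the RefSeq promoter entry uses, which for Fosb lies a few bases inside the span of the gene, read 5′ to 3′ on the gene's strand in GRCm38.p6, and the capitals mark the motif that a search of the letters found. The Hspa1b run lies at chr17:34959239-34959388 on the minus strand, the Fosb run at chr7:19310046-19310195 on the minus strand, and the Isg15 run at chr4:156200819-156200968 on the minus strand.
Hspa1b: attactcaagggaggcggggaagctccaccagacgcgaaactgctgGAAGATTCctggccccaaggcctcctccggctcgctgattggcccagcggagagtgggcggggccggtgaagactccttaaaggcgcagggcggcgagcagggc
Fosb: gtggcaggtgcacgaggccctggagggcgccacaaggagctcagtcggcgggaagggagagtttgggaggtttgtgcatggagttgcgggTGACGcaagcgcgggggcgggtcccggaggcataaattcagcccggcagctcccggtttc
Isg15: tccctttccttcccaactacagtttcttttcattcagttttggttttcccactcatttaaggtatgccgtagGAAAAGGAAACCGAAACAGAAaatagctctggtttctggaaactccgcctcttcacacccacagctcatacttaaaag
In Hspa1b the capitals are the core of a heat shock element, GAANNTTC, and begin 104 bases before the start. In Fosb they are the core of a cyclic AMP response element, TGACG, and begin 60 bases before it. In Isg15 they are 3 overlapping matches to the core of an interferon response element, GAAANNGAA, which begin 78, 72 and 66 bases before it. A match is a description of the letters and not a sign of binding. The shares of promoters with a motif that are given below were counted over each whole entry. An entry runs from 250 bases before the start to 50 after it.

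The cells carried the messages of mature DCs in both conditions. Total counts per library were 13878626 to 23906193 at 4.4 mg/ml and 13849590 to 23014871 in suspension, and mitochondrial genes took 0.832% to 2.90% and 0.583% to 1.68% of the counts. Levels are given as CPM (gene counts relative to library depth) scaled by the trimmed mean of M-values (TMM), in the order lowest, median and highest for the 6 suspension libraries and replicate 1, 2 and 3 for 4.4 mg/ml. Ccr7, the CCL19 receptor, was at 2342, 3874 and 6425 CPM in suspension and at 3749.9, 3462 and 5244 CPM at 4.4 mg/ml (log2 fold change 0.11, SE 0.26, adjusted p = 0.79). Cd74, the invariant chain of MHC class II, was at 8416, 18800.1 and 29668 CPM and at 13931, 27551 and 31816 CPM (log2 fold change 0.42, SE 0.33, adjusted p = 0.377). The groups overlapped for both genes, and neither passed the test. Zbtb46, a transcription factor of classical DCs, was at 37.1, 40.9 and 65.1 CPM and 49.1, 60.6 and 53.8 CPM and did not pass (log2 fold change 0.29, SE 0.20, adjusted p = 0.323). Itgax, the integrin CD11c by which DCs are sorted, was at 54.5, 104 and 273 CPM and 293, 446 and 168 CPM (log2 fold change 1.47, SE 0.28, adjusted p = 0.00126). Flt3, a cytokine receptor of DC precursors, was at 6.76, 10.1 and 24.4 CPM and 5.91, 4.61 and 6.14 CPM (log2 fold change -1.08, SE 0.29, adjusted p = 0.0137), and its adjusted p was 0.112 without replicate 3 at 4.4 mg/ml. Itgax was higher with overlapping groups, and Flt3 was lower in each gel library than in any suspension library. Of the 14 DC markers 3 were higher and 1 was lower, beside 15.8% higher and 16.2% lower among all genes tested. All 14 DC markers examined were detected, and their summed level spanned 32030 to 100986 CPM in suspension and 43612 to 111838 CPM at 4.4 mg/ml.

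Of 13844 genes that passed a filter on low counts, 4420 passed edgeR's quasi-likelihood test at a false discovery rate (FDR) of 0.1, which is 31.9%. Of these, 2181 genes were higher at 4.4 mg/ml (15.8% of the genes tested) and 2239 were lower (16.2%). The change exceeded 4-fold for 410 of the higher and 233 of the lower genes, and 4038 of the 4420 genes moved in the same direction in 3 of 3 replicates. In 682 genes (4.93%) every 4.4 mg/ml library lay above every suspension library, and in 1280 genes (9.25%) every one lay below. Counts of list members in the text are to be read beside these shares of all genes. The balance between higher and lower depends on how libraries are scaled. With total counts in place of TMM the median log2 fold change of all genes was -0.26, and 1168 genes were higher and 3394 lower, so that 25.6% of the called genes were higher in place of 49.3%. Without the replicate block 2054 genes passed, 907 of them higher. Against the controls titled plus CCL19 alone 3481 genes passed, and 2954 of them also passed in the same direction with the controls pooled. Against those titled without CCL19 alone the numbers were 3605 and 3147. Which title holds the controls that received CCL19 is not settled. The plot of 12 genes by library shows the size of these differences beside the spread within each group. In bulk RNA, fewer cells of a type and less RNA per cell of that type cannot be told apart.

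**Figure D1:**
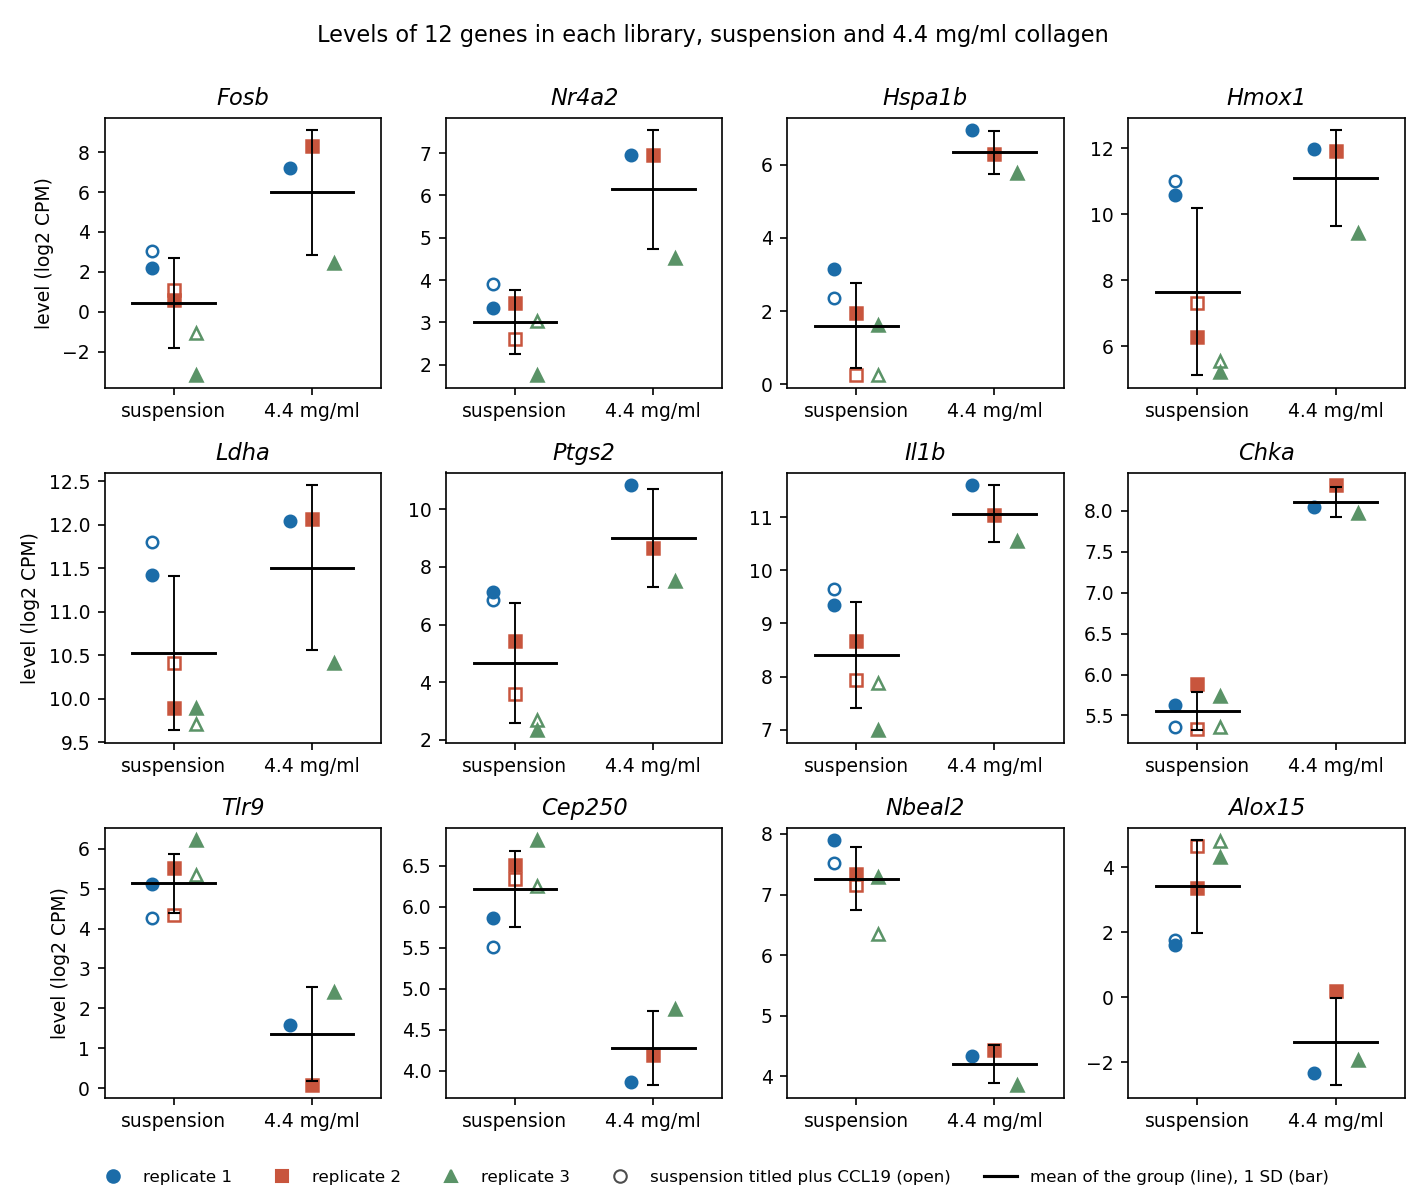
Levels in log2 CPM (vertical axis) of 12 genes in the 6 suspension libraries and the 3 libraries at 4.4 mg/ml collagen (horizontal axis), with symbols for replicates, the group mean as a line and 1 SD as a bar. Chka sits at 40.2 to 59.1 CPM in suspension and at 251 CPM or more in every 4.4 mg/ml library, while replicate 3 of Fosb and Ldha at 4.4 mg/ml lies inside the range of the suspension libraries.

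Genes of the immediate-early class, transcription factors that cells switch on within minutes of a stimulus without new protein synthesis, had the largest share of higher genes among the lists with over 10 members tested. Of 24 tested, 20 were higher (against 15.8% of all genes) and 1 was lower, with a median log2 fold change of 1.59 beside 0.02 for all genes tested. Fosb, a subunit of the AP-1 transcription factor, lies at chr7:19302696-19310051 and was at 0, 1.71 and 8.07 CPM in suspension and 148, 321 and 5.25 CPM at 4.4 mg/ml, a log2 fold change of 6.38 (SE 0.82, adjusted p = 5.94e-05). Replicates 1 and 2 were far above every suspension library and replicate 3 was inside their range, although it stood above both suspension libraries of its own replicate. Nr4a2, an orphan nuclear receptor, rose from 3.25, 9.01 and 14.9 CPM to 123, 125 and 22.7 CPM (log2 fold change 3.26, SE 0.40, adjusted p = 5e-05). Klf4, a zinc finger factor of myeloid differentiation, rose from 1.04, 3.5 and 13.2 CPM to 109, 42.9 and 21 CPM (log2 fold change 3.50, SE 0.42, adjusted p = 3.94e-05). Both genes were above all suspension libraries in every 4.4 mg/ml library, and replicate 3 was again the lowest.

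Others in the class behaved alike. Ier3, a stress-response gene that limits cell death, reached 1590.1, 2649 and 494 CPM from 60.7, 109 and 419 CPM (log2 fold change 3.37, SE 0.36, adjusted p = 1.72e-05). Egr1, a zinc finger factor, stood at 20.4, 39.6 and 3.45 CPM beside 0.664, 2.27 and 3.52 CPM (log2 fold change 3.24, SE 0.45, adjusted p = 0.000116). Egr2, a paralog of it, rose from 3.65, 5.88 and 8.98 CPM to 36.3, 41.4 and 15.3 CPM (log2 fold change 2.33, SE 0.30, adjusted p = 5.53e-05). For Ier3 and Egr2 the groups were apart, while Egr1 in replicate 3 was just under the highest suspension library. Fos, the AP-1 subunit for which the class is best known, was at 112, 75.5 and 7.29 CPM against 1.62, 9.13 and 19.8 CPM (6.51-fold, SE 0.46 on the log2 scale, adjusted p = 0.000535), and its partner Jun rose less, by 1.23 on the log2 scale (SE 0.19, adjusted p = 0.000257). Klf2, a factor of quiescence and trafficking, was the exception, at 6.36, 5.12 and 3.05 CPM against 6.24, 10.9 and 28.5 CPM (log2 fold change -1.27, SE 0.35, adjusted p = 0.0152), and its adjusted p was 0.105 without replicate 3 at 4.4 mg/ml. Without the replicate block 14 of the 24 genes were higher. The letters TGACG on either strand were in the promoters of 12 of 19 immediate-early genes that had a promoter entry (63.2%). They were in 35% of the genes tested and in 20.8% of all promoter entries. Of all genes higher at 4.4 mg/ml 34.8% had them, and of those over 4-fold higher 26.3%.

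The dual-specificity phosphatases, which switch off mitogen-activated protein (MAP) kinases and are themselves induced by MAP kinase signaling, moved in the same direction. Of 15 tested, 8 were higher and 1 was lower (median log2 fold change 0.95). Dusp10, which acts on the stress kinases p38 and JNK, was at 0.207, 0.911 and 5.47 CPM in suspension and 26.3, 13.9 and 0.999 CPM at 4.4 mg/ml (log2 fold change 2.88, SE 0.49, adjusted p = 0.000535). Dusp2 rose from 1.28, 3.38 and 6.14 CPM to 13.9, 21.1 and 7.34 CPM (log2 fold change 2.04, SE 0.34, adjusted p = 0.00046). Dusp2 was above every suspension library in all replicates, and Dusp10 only in replicates 1 and 2. Without the replicate block 5 members were higher. Hbegf, a growth factor of the epidermal growth factor family that is released by shedding, and Rasgef1b, a guanine exchange factor induced by Toll-like receptors, rose as steeply. Hbegf went from 1.24, 2.57 and 3.98 CPM to 34.3, 43.1 and 5.84 CPM (log2 fold change 3.31, SE 0.43, adjusted p = 6.92e-05) and Rasgef1b from 0.985, 2.24 and 4.65 CPM to 36.4, 46.1 and 7.99 CPM (log2 fold change 3.64, SE 0.36, adjusted p = 1.23e-05), with no overlap between the groups.

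**Figure D2:**
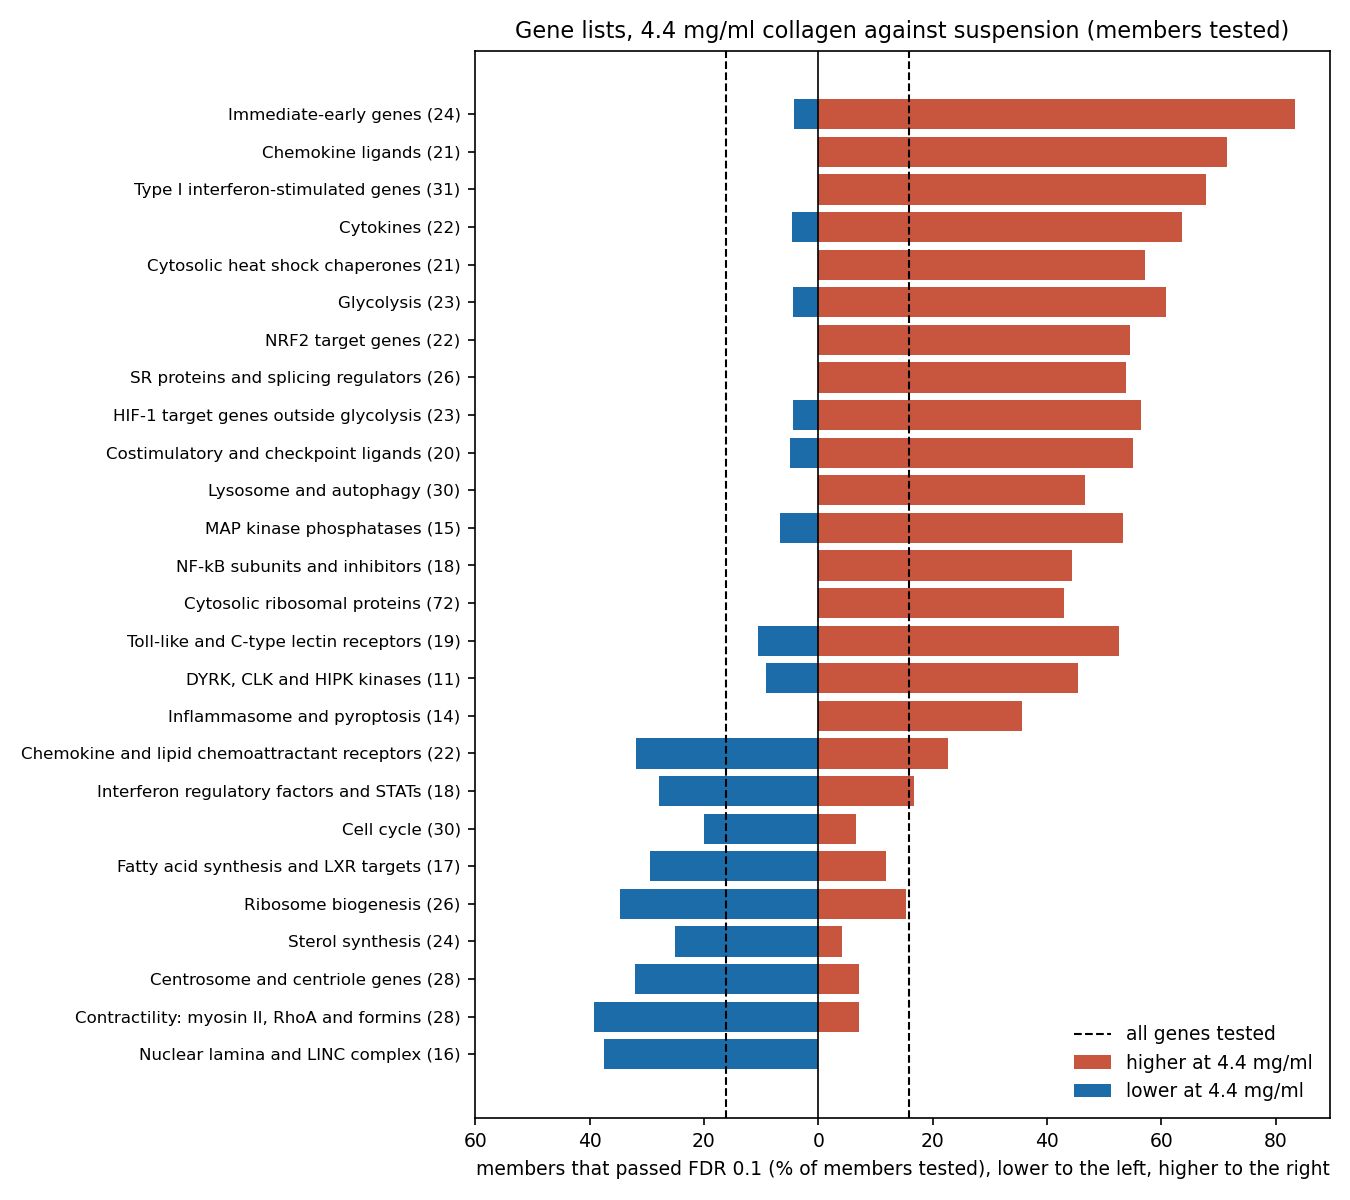
Share of the tested members of each gene list (horizontal axis, percent) that passed FDR 0.1, higher to the right and lower to the left, with the number of members tested in brackets and dashed lines at the shares of all genes tested, 15.8% and 16.2%. The lists shown are those with the most one-sided counts among lists with over 10 members tested, and 20 of 24 immediate-early genes stand at one end and the nuclear lamina list, with 6 of 16 lower, at the other.

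Chaperones of the cytosol are the heat shock proteins that refold damaged proteins. Of 21 tested, 12 were higher (against 15.8% of all genes) and none was lower (median log2 fold change 0.94). In 7 every 4.4 mg/ml library was above all suspension libraries, against 4.93% of all genes. Hspa1b, an inducible HSP70, was at 1.07, 3.37 and 8.73 CPM in suspension and 124, 77.9 and 54.8 CPM at 4.4 mg/ml, a 27.3-fold rise (log2 fold change 4.77, SE 0.42, adjusted p = 2.75e-06). Its neighbor Hspa1a was at 1, 2.42 and 4.21 CPM and 40.6, 56.2 and 18.2 CPM (log2 fold change 4.05, SE 0.34, adjusted p = 2.03e-06). The 2 genes are almost identical in sequence, so reads can be split between them and their separate levels are uncertain. Hspa4l, an HSP110 cochaperone, rose from 16.1, 28.8 and 50.7 CPM to 303, 108 and 322 CPM (log2 fold change 3.04, SE 0.35, adjusted p = 3.19e-05). Dnajb4, an HSP40, rose from 8.87, 12.8 and 22.3 CPM to 90.7, 53.6 and 65.4 CPM (log2 fold change 2.33, SE 0.25, adjusted p = 1.66e-05). For these 4 genes the lowest 4.4 mg/ml library was above the highest suspension library. The heat shock core GAANNTTC was in 10 of 17 chaperone promoters (58.8%), beside 6.94% of the genes tested. It was in 7.07% of all genes higher at 4.4 mg/ml and in 7.45% of those over 4-fold higher. Without the replicate block 7 members were higher.

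Other stress programs were split. Among targets of NRF2, the regulator of the oxidative stress response, 12 of 22 were higher and none was lower (median log2 fold change 1.03). Hmox1, the heme-degrading heme oxygenase 1, was at 37.6, 118 and 2083 CPM in suspension and 4038, 3855 and 686 CPM at 4.4 mg/ml (log2 fold change 3.77, SE 0.44, adjusted p = 3.35e-05). The suspension libraries of replicate 1 were already high for it, and the log2 differences within replicates were 1.18, 5.12 and 4.03. Hmox1 at 4.4 mg/ml was at 11.98, 11.91 and 9.42 log2 CPM in replicates 1, 2 and 3. The other gels of these numbers were at 12.00 to 12.22, 8.86 to 9.49 and 7.60 to 8.43 log2 CPM. Txnrd1, a thioredoxin reductase, rose from 76.7, 139.9 and 328 CPM to 608, 496 and 244 CPM (log2 fold change 1.53, SE 0.27, adjusted p = 0.00068), also with overlapping groups. Without the block 4 NRF2 targets were higher.

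In the integrated stress response, which slows general translation by phosphorylation of the initiation factor eIF2α while the transcription factor ATF4 is made, 6 of 28 genes were higher and 4 lower (median -0.22). Atf4 itself rose from 109, 178 and 410.1 CPM to 1042, 1205 and 716 CPM (log2 fold change 2.31, SE 0.23, adjusted p = 1.44e-05). Ppp1r15a, the phosphatase subunit that ends the response, was at 785, 1232 and 150.3 CPM beside 72.4, 96.7 and 239.8 CPM (log2 fold change 2.51, SE 0.38, adjusted p = 0.000219). Chac1, a glutathione-degrading target of ATF4, went the other way, from 1.23, 2.07 and 3.86 CPM to 0.812, 0.683 and 0.35 CPM (log2 fold change -1.81, SE 0.52, adjusted p = 0.0181). Thus the messenger of the central factor rose in every replicate while the list of its targets had calls in both directions, and with total counts 5 members were higher and 12 lower. In the unfolded protein response of the endoplasmic reticulum 7 of 23 genes were higher and 1 lower (median 0.37), led by Hspa5, the luminal HSP70, at 304, 384 and 487 CPM and 1437, 854 and 1174 CPM (log2 fold change 1.61, SE 0.19, adjusted p = 3.43e-05). The count of higher genes was 11 without replicate 2 and 3 without replicate 3 at 4.4 mg/ml, and 4 without the suspension library titled plus CCL19 of replicate 3. Of 20 targets of p53, 8 were higher and 3 lower. The 3 became 1 without replicate 2 at 4.4 mg/ml or without either suspension library of replicate 1, 5 without the one titled without CCL19 of replicate 3, and 7 with total counts. The higher ones included Mdm2, the ligase that degrades p53, at 35.5, 61.5 and 151 CPM and 439.7, 289 and 155 CPM (log2 fold change 2.07, SE 0.32, adjusted p = 0.000249), and Cdkn1a, the cell cycle inhibitor p21, at 851, 1412 and 2194 CPM and 3384, 5837 and 3463 CPM (log2 fold change 1.63, SE 0.26, adjusted p = 0.000306), and neither overlapped with suspension.

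In glucose metabolism the count rests on 1 library. Of 23 glycolysis genes, 14 were higher and 1 was lower (median 1.00), and the medians within replicates 1, 2 and 3 were 0.09, 1.92 and 0.37. Ldha, lactate dehydrogenase A, was at 835, 1157 and 3559 CPM in suspension and 4215, 4299 and 1359 CPM at 4.4 mg/ml (log2 fold change 1.16, SE 0.33, adjusted p = 0.0168). Slc2a1, the glucose transporter GLUT1, was at 31.5, 95.5 and 1433 CPM and 857, 928 and 97.8 CPM (log2 fold change 1.86, SE 0.49, adjusted p = 0.0113). Both overlapped with suspension. The suspension libraries of replicate 1 were above those of replicates 2 and 3 for both genes, and for Slc2a1 they were above the gel library of their own replicate. Without replicate 2 at 4.4 mg/ml, 2 glycolysis genes were higher, the adjusted p of Ldha was 0.389 and that of Slc2a1 was 0.416. Without the block 1 was higher. Slc16a1, a lactate transporter, and Pgk1, phosphoglycerate kinase, kept their call without that library. Slc16a1 was at 0.811, 2.79 and 9.81 CPM and 41.9, 18.9 and 9.14 CPM (log2 fold change 2.69, SE 0.32, adjusted p = 3.43e-05), and Pgk1 at 26.3, 32.3 and 67.5 CPM and 119, 134 and 48.9 CPM (log2 fold change 1.37, SE 0.26, adjusted p = 0.00108).

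Targets of the hypoxia-inducible factor HIF-1 outside glycolysis had 13 of 23 higher and 1 lower (median 1.00), and 5 higher without replicate 2 at 4.4 mg/ml. Without the block 2 were higher, and with total counts 8. Adm, the peptide adrenomedullin, was at 0.058, 0.939 and 4.5 CPM and 8.35, 14.9 and 2.7 CPM (log2 fold change 3.26, SE 0.60, adjusted p = 0.000975), and Ankrd37, a small ankyrin repeat protein, at 0.811, 4.09 and 46.4 CPM and 149, 40.8 and 5.6 CPM (log2 fold change 2.62, SE 0.45, adjusted p = 0.000626). Both overlapped with suspension in replicate 3, Ankrd37 also in replicate 2, and within replicates the log2 differences were 1.51, 4.40 and 2.61 for Adm and 1.81, 3.30 and 2.27 for Ankrd37. The hypoxia core ACGTG was in 15 of 22 glycolysis promoters (68.2%), beside 29.2% of the genes tested, and its letters can overlap those of TGACG. It was in 32.5% of all genes higher at 4.4 mg/ml and in 27.8% of those over 4-fold higher.

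Most tested genes of secreted inflammatory signals were higher at 4.4 mg/ml, in cells that all had received LPS. Of 22 cytokine genes 14 were higher and 1 was lower (median 1.29), and of 21 chemokine genes 15 were higher and none was lower (median 1.46). Il1b, the pyrogenic interleukin 1β, rose from 127, 325 and 805 CPM in suspension to 3131, 2107 and 1496 CPM (log2 fold change 2.65, SE 0.29, adjusted p = 2e-05). Il1a, its paralog, rose from 16.5, 60.5 and 129 CPM to 1148, 258 and 235 CPM (log2 fold change 3.02, SE 0.38, adjusted p = 5.28e-05), and Il6 from 11, 29.4 and 60 CPM to 284, 75.7 and 122 CPM (log2 fold change 2.23, SE 0.37, adjusted p = 0.000444). All 3 had groups that were apart. Tnf, a cytokine made early after LPS, was at 8.69, 10.2 and 21 CPM and 60.5, 99.6 and 14.8 CPM (log2 fold change 2.16, SE 0.36, adjusted p = 0.000451), with replicate 3 in the range of suspension. Il16, a chemoattractant of CD4+ cells, was the cytokine that fell, from 8.23, 12.5 and 34.6 CPM to 1.94, 2.73 and 4.35 CPM (log2 fold change -2.23, SE 0.35, adjusted p = 0.000289). Tnfsf9, the ligand of the T cell receptor 4-1BB, was at 2.38, 6.54 and 13.9 CPM and 54.6, 61.6 and 13.6 CPM (log2 fold change 2.59, SE 0.37, adjusted p = 0.000149).

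Chemokines for neutrophils and monocytes led the rise. Ccl3, an attractant of monocytes, rose from 13.9, 31.6 and 44.2 CPM to 231, 345 and 84.6 CPM (log2 fold change 2.88, SE 0.30, adjusted p = 1.66e-05), and Cxcl1, a neutrophil attractant, from 1.45, 5.72 and 18.7 CPM to 75.6, 54 and 19.8 CPM (log2 fold change 2.89, SE 0.37, adjusted p = 5.51e-05). Cxcl2 was at 3.3, 23.9 and 117 CPM and 532, 279 and 66.5 CPM (log2 fold change 3.17, SE 0.51, adjusted p = 0.00034). Ccl3 and Cxcl1 had no overlap, and Cxcl2 in replicate 3 fell inside the suspension range. The chemokine count was 9 without replicate 2 at 4.4 mg/ml, 9 with total counts, and 5 without the block, and the cytokine count was 8 without the block. Ptgs2, the inducible cyclooxygenase of prostaglandin synthesis, rose from 4.93, 27.6 and 139 CPM to 1836, 399 and 183 CPM (log2 fold change 4.16, SE 0.52, adjusted p = 5.08e-05), and Ptges, which makes prostaglandin E2 from its product, was at 2.55, 22.1 and 194 CPM and 211, 601 and 40.5 CPM (log2 fold change 3.51, SE 0.55, adjusted p = 0.000288). Ptgs2 was apart from suspension in all libraries and Ptges in replicates 1 and 2. Of 18 NF-kB subunits and inhibitors 8 were higher, 5 without replicate 2 at 4.4 mg/ml. With total counts 4 were higher and 6 lower, so the list has no direction that holds under both scalings. Nfkbid, a nuclear inhibitor, rose from 10, 12.3 and 17.8 CPM to 55.6, 99.5 and 20.7 CPM (log2 fold change 2.08, SE 0.34, adjusted p = 0.000368), with no overlap.

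Genes induced by type I interferon, which restrict viruses, were higher in 21 of 31 tested and lower in none (median 1.14). The medians within replicates 1, 2 and 3 were 0.96, 1.47 and 1.04. Isg15, a ubiquitin-like modifier, rose from 62.7, 129 and 172 CPM to 485, 333 and 322 CPM (log2 fold change 1.66, SE 0.22, adjusted p = 6.96e-05) with no overlap. Mx2, a dynamin-like antiviral protein, was at 3.13, 5.21 and 30.7 CPM and 88.6, 35.1 and 22.6 CPM (log2 fold change 2.46, SE 0.28, adjusted p = 3.08e-05). Ifi44 was at 2.22, 5.01 and 12.2 CPM and 41.2, 11.8 and 21 CPM (log2 fold change 2.07, SE 0.26, adjusted p = 5.45e-05). For Mx2 and Ifi44 1 or both suspension libraries of replicate 1 were above the lowest gel library, and within replicates the log2 differences were 1.61, 2.76 and 2.80 for Mx2 and 1.93, 1.56 and 2.74 for Ifi44. The interferon core GAAANNGAA was in 13 of 22 promoters of the list (59.1%), beside 9.04% of the genes tested. It was in 10.8% of all genes higher at 4.4 mg/ml and in 12.5% of those over 4-fold higher. Without the block 4 members were higher, and with total counts 17 were higher and 2 lower. Of 18 interferon regulatory factors and STATs, the transcription factors above and below interferon, 3 were higher and 5 lower. The 3 became 1 without replicate 2 at 4.4 mg/ml, and the 5 became 1 without replicate 3 there, 3 without either suspension library of replicate 1, 1 with only the libraries compared and 8 with total counts. Irf7, itself an interferon-induced gene, was among the higher.

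Surface molecules for T cells and for microbes differed one by one. Of 20 costimulatory and checkpoint ligands 11 were higher and 1 was lower (median 0.62), and 7 were higher without the block. Among them was Pdcd1lg2, the PD-1 ligand PD-L2, at 65.1, 92.9 and 122 CPM and 122, 128 and 262 CPM (log2 fold change 0.86, SE 0.18, adjusted p = 0.00236). Of 13 MHC class II genes 3 were higher and 1 lower, and of 19 MHC class I genes 3 were higher. Without replicate 2 at 4.4 mg/ml no member of either list was higher, and without replicate 1 there 6 and 5 were. H2-Ab1, an MHC class II chain, was at 2605, 3902 and 4756 CPM and 3766, 7321 and 6175 CPM (log2 fold change 0.64, SE 0.30, adjusted p = 0.133). Ciita, the coactivator that MHC class II genes need, fell from 36.8, 126 and 246 CPM to 38.2, 35.8 and 27.7 CPM (log2 fold change -1.83, SE 0.31, adjusted p = 0.000495). H2-Ab1 did not pass while Ciita did, and both overlapped with suspension.

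Of 19 Toll-like and C-type lectin receptors 10 were higher and 2 lower (median 0.83), and 5 were higher without replicate 3 at 4.4 mg/ml. Without the block 4 were higher and 1 lower. Tlr9, the endosomal receptor for unmethylated CpG DNA, at chr9:106222598-106226883, fell from 19.2, 37.6 and 74.7 CPM to 2.89, 0.939 and 5.2 CPM, 11.9-fold (log2 fold change -3.57, SE 0.41, adjusted p = 3.19e-05). Every 4.4 mg/ml library was under every suspension library, and replicate 2 was the lowest. Clec4e, the receptor Mincle for fungal and mycobacterial glycolipids, was at 25.2, 69.8 and 209 CPM and 575, 187 and 282 CPM (log2 fold change 2.21, SE 0.32, adjusted p = 0.000142), with replicate 2 inside the suspension range. Of 22 receptors for chemokines and lipid chemoattractants 5 were higher and 7 lower. Ccrl2, a receptor that binds chemerin and presents it, was at 9.8, 30.3 and 165 CPM and 381, 357 and 49.8 CPM (log2 fold change 2.62, SE 0.42, adjusted p = 0.00034). Its 4.4 mg/ml libraries were at 8.58, 8.48 and 5.64 log2 CPM in replicates 1, 2 and 3. The other gels of these numbers were at 8.03 to 8.66, 4.79 to 5.66 and 4.28 to 5.26 log2 CPM. S1pr4, a sphingosine 1-phosphate receptor, fell from 9.78, 13.2 and 48.4 CPM to 3.83, 5.89 and 4.85 CPM (log2 fold change -1.74, SE 0.39, adjusted p = 0.00392), with no overlap.

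The contractile machinery had more members lower than higher. Of 28 genes of myosin II, RhoA and the formins, 11 were lower (against 16.2% of all genes) and 2 higher (median -0.30). In 8 every 4.4 mg/ml library was under every suspension library, against 9.25% of all genes. Inf2, a formin that assembles and severs actin, fell from 296, 366 and 415 CPM to 118, 176 and 103 CPM (log2 fold change -1.46, SE 0.21, adjusted p = 0.000186). Myo9b, a myosin that inactivates RhoA, fell from 265, 438 and 601 CPM to 158, 184 and 84.1 CPM (log2 fold change -1.60, SE 0.25, adjusted p = 0.000307). Myh9, the heavy chain of nonmuscle myosin IIA, fell from 984, 1381 and 1782 CPM to 526, 766 and 586 CPM (log2 fold change -1.18, SE 0.30, adjusted p = 0.0081). All 3 were apart from suspension. The adjusted p of Myh9 was 0.124 when replicate 1 was left out of all groups. Arhgef18, a RhoA exchange factor, was at 9.62, 12.9 and 29.8 CPM and 3.38, 9.22 and 1.85 CPM (log2 fold change -1.80, SE 0.31, adjusted p = 0.000631). The count of lower members was 7 without the block and 7 with offsets for GC content and length.

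The coactivators MRTF-A and MRTF-B, which read the pool of free actin and drive the serum response factor (SRF), fell together. Mrtfa went from 228, 335 and 451 CPM to 162, 161 and 154 CPM (log2 fold change -1.05, SE 0.19, adjusted p = 0.000834) and Mrtfb from 12.2, 24.1 and 49.4 CPM to 8.48, 5.89 and 7.44 CPM (log2 fold change -1.73, SE 0.38, adjusted p = 0.0036). No 4.4 mg/ml library of either overlapped with suspension. Of the 20 cytoplasmic actins and SRF targets as a list, 2 were higher and 2 lower, which is below the share of all genes in both directions. Of 27 genes of branched actin, 6 were higher and 4 lower, and of 22 adhesion and crosslinking genes 2 were higher and 3 lower. The 6 higher branched actin genes became 1 without replicate 1 or without replicate 3 at 4.4 mg/ml, 3 without the suspension library titled plus CCL19 of replicate 3 or titled without CCL19 of replicate 1, and 0 without the block or with total counts, and the 4 lower became 2 without replicate 1 at 4.4 mg/ml. The 2 higher adhesion genes became 0 without replicate 3 at 4.4 mg/ml, and 1 or 0 under most alternatives. Flna, the crosslinker filamin A, was at 1472, 2643 and 5127 CPM and 651, 1299 and 1986 CPM (log2 fold change -1.12, SE 0.25, adjusted p = 0.00419), and Tln1, talin, at 766, 924 and 1158 CPM and 451, 652 and 577 CPM (log2 fold change -0.76, SE 0.21, adjusted p = 0.0152). Both are long transcripts and lost their call with the offsets for GC content and length, with log2 fold changes of -0.49 for Flna and -0.06 for Tln1. Of 16 integrins 2 were higher and 3 lower, and 8 were higher with the offsets. Itgb7, the β7 chain, fell from 32, 53.1 and 63.5 CPM to 24.4, 16.3 and 7.99 CPM (log2 fold change -1.78, SE 0.31, adjusted p = 0.000607).

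Among centrosome genes more members were lower than higher. Of 28 centrosome and centriole genes, 9 were lower (against 16.2% of all genes) and 2 higher (against 15.8%). The median was -0.69 beside 0.02 for all genes tested. In 9 every 4.4 mg/ml library was under every suspension library, against 9.25% of all genes. Cep250, the linker protein that ties the centrioles of a pair together, at chr2:155956458-155998900, fell from 45.5, 78.6 and 113 CPM in suspension to 14.4, 18.2 and 26.9 CPM (log2 fold change -1.93, SE 0.27, adjusted p = 0.000108). Crocc, which encodes rootletin, the partner of that linker, fell from 3.07, 5.17 and 10.4 CPM to 1.58, 1.45 and 0.4 CPM (log2 fold change -2.30, SE 0.55, adjusted p = 0.00604). Pcnt, the pericentrin scaffold of the pericentriolar material, fell from 15.4, 21.5 and 32.2 CPM to 10.1, 11.2 and 9.59 CPM (log2 fold change -1.12, SE 0.30, adjusted p = 0.0118). The groups were apart for all 3. Akna, a protein of the subdistal appendages that anchors microtubules, fell from 168, 240.2 and 307 CPM to 60, 54.6 and 80.7 CPM (log2 fold change -1.87, SE 0.28, adjusted p = 0.000208), with no overlap. Plk4, the kinase that starts centriole duplication, went the other way, at 2.5, 5.15 and 10.6 CPM and 24.5, 13.4 and 7.79 CPM (log2 fold change 1.62, SE 0.42, adjusted p = 0.00964), and its adjusted p was 0.201 without replicate 1 at 4.4 mg/ml. The call of Cep250 held under all 22 alternatives, whereas Pcnt had an adjusted p of 0.156 with the GC and length offsets and of 0.124 without replicate 1 of all groups. The count of lower members was 6 without the block and 14 with total counts. Of 21 microtubule genes 3 were higher and 3 lower. The 3 higher became 1 without replicate 2 or 3 at 4.4 mg/ml, and the 3 lower became 1 without any single one of the 4.4 mg/ml libraries.

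Of the 11 DYRK, CLK and HIPK kinases, related enzymes that include kinases of splicing factors, 5 were higher and 1 was lower, and 3 were higher without replicate 1 at 4.4 mg/ml or without the suspension library titled plus CCL19 of replicate 2. The count of higher kinases was 2 with total counts, 2 against the controls titled without CCL19 alone, and 1 without the block. Dyrk3, a kinase that dissolves membraneless compartments, rose from 1.1, 1.92 and 3.79 CPM to 12.9, 13.9 and 8.64 CPM (log2 fold change 2.55, SE 0.31, adjusted p = 4.54e-05). Clk2, a kinase of SR proteins, fell from 14.4, 20.3 and 32.6 CPM to 10.3, 9.13 and 8.29 CPM (log2 fold change -1.31, SE 0.31, adjusted p = 0.00563). Neither overlapped with suspension. In the nuclear lamina and its LINC complex, which couples the nucleus to the cytoskeleton, 6 of 16 genes were lower and none higher. Lmnb2, a B-type lamin, fell from 14.1, 16 and 19.9 CPM to 4.02, 9.65 and 1.95 CPM (log2 fold change -1.78, SE 0.34, adjusted p = 0.0014) with no overlap. The lamina count was 3 without replicate 2 at 4.4 mg/ml, 3 without the block, and 4 with offsets for GC content and length, which also put 3 members higher.

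Matrix proteases and their inhibitors were mixed, with 7 of 18 higher and 3 lower, and 4 higher without replicate 2 at 4.4 mg/ml. Without the block 2 were higher and none lower. Mmp14, a membrane-bound collagenase, was at 27.8, 97.9 and 215 CPM and 439, 229 and 138 CPM (log2 fold change 1.45, SE 0.24, adjusted p = 0.00046). Mmp9, a gelatinase, was at 67.3, 94.7 and 257 CPM and 49, 79.1 and 37.7 CPM (2-fold lower, SE 0.29 on the log2 scale, adjusted p = 0.0189). Both overlapped with suspension, in opposite directions. Timp3, an inhibitor of these proteases, rose from 0.696, 1.71 and 2.96 CPM to 6.36, 8.71 and 7.29 CPM (log2 fold change 2.17, SE 0.34, adjusted p = 0.000263), with no overlap. Of 12 receptors for collagen and matrix 1 was higher and 1 lower.

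Chka, choline kinase α, which commits choline to phosphatidylcholine for membranes, lies at chr19:3851773-3894369 and had the smallest standard error of the genes named in this comparison. It was at 40.2, 45.2 and 59.1 CPM in suspension and 264, 319.6 and 251 CPM at 4.4 mg/ml, a 5.91-fold rise (log2 fold change 2.56, SE 0.17, adjusted p = 1.83e-07). The groups were far apart and the 3 gel libraries were close together. Of 15 phosphatidylcholine genes tested, Chka among them, Chka alone was higher and 2 were lower, and 1 was lower without replicate 1 or 3 at 4.4 mg/ml. Lpcat1, which remodels phosphatidylcholine, fell from 31.3, 44.3 and 57.8 CPM to 10.5, 14.7 and 15 CPM (log2 fold change -1.69, SE 0.26, adjusted p = 0.000233). Sterol synthesis had 6 of 24 genes lower and 1 higher, and fatty acid synthesis with LXR targets 5 of 17 lower and 2 higher. The 5 became 3 without replicate 1 and 2 without replicate 3 at 4.4 mg/ml, 1 without the block and 9 with total counts. Acaca, which makes malonyl-CoA for fatty acids, fell from 5.16, 10.4 and 24.9 CPM to 2.75, 4.35 and 5.1 CPM (log2 fold change -1.57, SE 0.27, adjusted p = 0.000631), with no overlap. The count of lower sterol genes was 2 without replicate 2 and 1 without replicate 3 at 4.4 mg/ml, and 3 without either suspension library of replicate 3.

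Lists of RNA and protein handling differed. Of 26 SR proteins and splicing regulators 14 were higher and none was lower (median 0.68), 6 without replicate 1 at 4.4 mg/ml, 9 without the suspension library titled plus CCL19 of replicate 3, 7 without the block and 6 with total counts. Sfpq, a factor of nuclear paraspeckles, rose from 64.3, 97.5 and 127 CPM to 265, 222 and 364 CPM (log2 fold change 1.52, SE 0.18, adjusted p = 3.19e-05), and Rbm39, a splicing coactivator, from 35.6, 60.7 and 108 CPM to 213, 141 and 203 CPM (log2 fold change 1.45, SE 0.29, adjusted p = 0.00199). In both the groups were apart. Of 72 cytosolic ribosomal proteins 31 were higher (median 0.62), 16 without replicate 3 at 4.4 mg/ml, 13 without the block and 15 with total counts. These genes have many processed copies in the genome, and the methods name RSEM for TPM values but not how reads with several matches entered the deposited counts, so their counts are uncertain. Rpl27 was at 2.01, 3.96 and 6.87 CPM and 7.31, 10.7 and 18.8 CPM (log2 fold change 1.65, SE 0.27, adjusted p = 0.00046), low for an abundant message. Ribosome biogenesis, the work of the nucleolus, had 9 of 26 lower and 4 higher, and 5 lower without replicate 2 or 3 at 4.4 mg/ml or without either suspension library of replicate 1. Gnl3, nucleostemin, rose from 4.5, 6.53 and 9.25 CPM to 24.9, 15.6 and 27.7 CPM (log2 fold change 1.82, SE 0.27, adjusted p = 0.000202), with no overlap, and Rrp1b, a nucleolar protein, was at 8.92, 12.5 and 42.1 CPM and 10.9, 6.06 and 4.15 CPM (log2 fold change -1.38, SE 0.25, adjusted p = 0.000771), with overlap.

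Of 30 lysosome and autophagy genes 14 were higher and none was lower (median 0.61), 8 without replicate 3 at 4.4 mg/ml, 3 without the block and 6 with total counts. Sqstm1, the autophagy receptor p62, rose from 891, 1908 and 2507 CPM to 4997, 6211 and 3942 CPM (log2 fold change 1.58, SE 0.30, adjusted p = 0.00124). Gabarapl1, an autophagosome protein, rose from 59.6, 105 and 210.0 CPM to 232, 336 and 240.4 CPM (log2 fold change 1.37, SE 0.21, adjusted p = 0.000267). Slc38a2, a transporter of small neutral amino acids, rose from 33.1, 41.9 and 96.3 CPM to 628, 433 and 142 CPM (log2 fold change 2.85, SE 0.38, adjusted p = 8.36e-05). None of these 3 overlapped with suspension.

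Several of the steepest changes were outside the lists. Tlcd2, a membrane protein, rose from 0.572, 1.63 and 2.56 CPM to 39.9, 30.6 and 34.9 CPM, 25.5-fold (log2 fold change 4.67, SE 0.38, adjusted p = 1.87e-06). Slco4a1, an organic anion transporter, rose from 8.29, 40.8 and 91 CPM to 455, 698 and 151 CPM (log2 fold change 3.71, SE 0.35, adjusted p = 6.27e-06). Among the genes that fell, Nbeal2, a BEACH domain protein needed for platelet granules, at chr9:110624789-110654161, went from 81.7, 159 and 239.5 CPM to 20.2, 21.5 and 14.3 CPM (log2 fold change -3.11, SE 0.33, adjusted p = 1.66e-05). In all 3 the groups were apart, for Slco4a1 narrowly in replicate 3. Card6, which carries a caspase recruitment domain, fell from 3.71, 4.4 and 7.41 CPM to 0.541, 0.512 and 0.0999 CPM (log2 fold change -3.81, SE 0.52, adjusted p = 9.65e-05), also without overlap. Cabyr, a calcium-binding protein, rose from 0.406, 0.802 and 1.37 CPM to 15.1, 12.9 and 5.65 CPM (log2 fold change 3.67, SE 0.47, adjusted p = 6.18e-05), and Zc3hav1l from 0.406, 0.864 and 1.73 CPM to 30.4, 22 and 3 CPM (log2 fold change 4.01, SE 0.54, adjusted p = 9.58e-05). Both were near 1 CPM in suspension and above it in all gel libraries.

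Markers of cells other than DCs moved between the conditions, most of all those of eosinophils. Of 9 eosinophil markers tested 8 were lower (median -3.29), and their summed level was 121, 362 and 1385 CPM in suspension and 39.9, 171 and 26.2 CPM at 4.4 mg/ml. Alox15, the lipoxygenase of eosinophils and some macrophages, at chr11:70344152-70352031, fell from 2.98, 15.1 and 27.9 CPM to 0.0902, 1.02 and 0.15 CPM, a log2 fold change of -5.31 (SE 0.67, adjusted p = 5.28e-05). Ccr3, the eotaxin receptor, fell from 1.94, 4.02 and 9.42 CPM to 0.767, 0.341 and 0.15 CPM (log2 fold change -3.67, SE 0.80, adjusted p = 0.00315). Epx, eosinophil peroxidase, was at 19.4, 33.4 and 163 CPM and 2.62, 19.6 and 1.2 CPM (log2 fold change -3.28, SE 0.64, adjusted p = 0.00158). Alox15 and Ccr3 were under every suspension library, and Epx in replicate 2 was just inside their range. In the other gels the sums were 14.8 to 116 CPM. Several of these genes have close paralogs, so their separate levels are uncertain.

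Macrophage markers were higher in 8 of 12 and lower in none (median 1.24), and 1 was higher without the block. Their sum was 669, 1882 and 5531 CPM in suspension and 4796, 6011 and 2473 CPM at 4.4 mg/ml. Fcgr1, the high-affinity receptor for immunoglobulin G, was at 18.3, 45.4 and 149.8 CPM and 391, 288 and 102 CPM (log2 fold change 2.36, SE 0.35, adjusted p = 0.000215), Marco, a scavenger receptor that DCs also express after LPS, at 44.8, 127 and 311 CPM and 459, 543 and 641 CPM (log2 fold change 2.19, SE 0.42, adjusted p = 0.00129), and Mrc1, the mannose receptor, at 0.232, 1.03 and 6.08 CPM and 2.3, 2.48 and 2.7 CPM (log2 fold change 1.02, SE 0.76, adjusted p = 0.345). Marco alone of these had groups that were apart, and Mrc1 did not pass. Fcgr1 at 4.4 mg/ml was at 8.61, 8.17 and 6.68 log2 CPM in replicates 1, 2 and 3. The other gels of these numbers were at 8.44 to 8.56, 4.86 to 6.02 and 4.61 to 5.68 log2 CPM. Neutrophil markers had 3 of 13 lower, with sums of 795, 2520 and 10276 CPM in suspension and 1207, 1540 and 3171 CPM at 4.4 mg/ml. Basophil and mast cell markers had 1 of 8 higher and 2 lower, lymphocyte markers 1 of 4 higher and 1 lower, and no erythroid (1 tested) or fibroblast marker (7 tested) passed. Of these lists Ncr1, a natural killer cell receptor, was at 0 in all 9 libraries. By replicate number, the mean macrophage sums in suspension were 4704, 1882 and 731 CPM, so the sum of replicate 1 at 4.4 mg/ml hardly differed from that of its own controls. Gene by gene, the median log2 differences of the 12 macrophage markers within replicates 1, 2 and 3 were 0.79, 1.39 and 1.96. The mean eosinophil sums in suspension were 137, 792 and 752 CPM, and each 4.4 mg/ml library was below that of its number. The part of macrophages and eosinophils in the inflammatory, chemokine receptor and lipoxygenase values above was not tested.

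**Figure D3:**
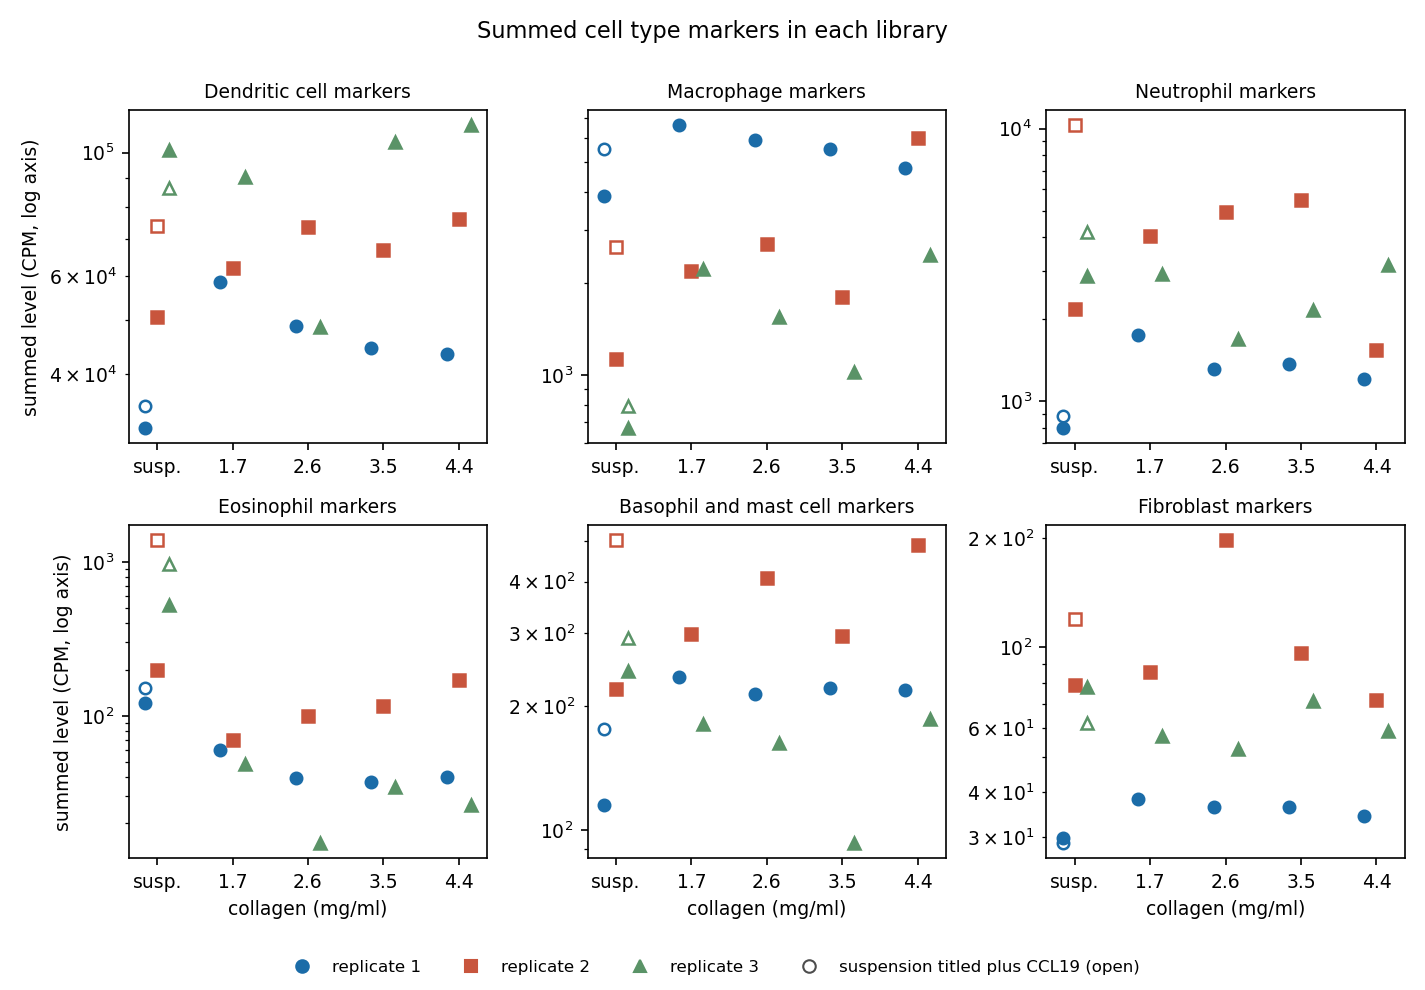
Summed level of the markers of 6 cell types (vertical axis, CPM, log axis) in each library of suspension and of the 4 collagen densities in mg/ml (horizontal axis), with symbols for replicates. Eosinophil markers at 4.4 mg/ml sit at 26.2 to 171 CPM beside 121 to 1385 CPM in suspension, and macrophage markers in replicate 1 are at 3877 and 5531 CPM in suspension beside 4796 to 6594 CPM in the gels.

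Higher and lower genes differed in build. The genes that were higher had a median transcript length of 2765 bases, 6 exons and a GC content of 48.4%, and 86.4% of them code for protein. Those that were lower had 4003 bases, 10 exons, 51.9% GC and 97.3% protein-coding genes, beside 3112 bases, 7 exons, 49.8% and 87.2% for all genes tested. Of the 2768 genes with the shortest transcripts (up to 1618 bases) 19.8% were higher and 3.25% lower, and of the 2766 with the longest (5004 bases or more) 12.1% were higher and 24.7% lower. With offsets for GC content and length these shares were 11.1% and 9.21% for the shortest and 22.7% and 20.1% for the longest, and 4903 genes passed in all. With the offsets more genes were higher than lower in both of these sets. A TATA box, TATAAA on either strand, was in 12.7% of the promoters of higher genes, 16.1% of those over 4-fold higher, 6.51% of lower genes and 8.66% of all genes tested.

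**Figure D4:**
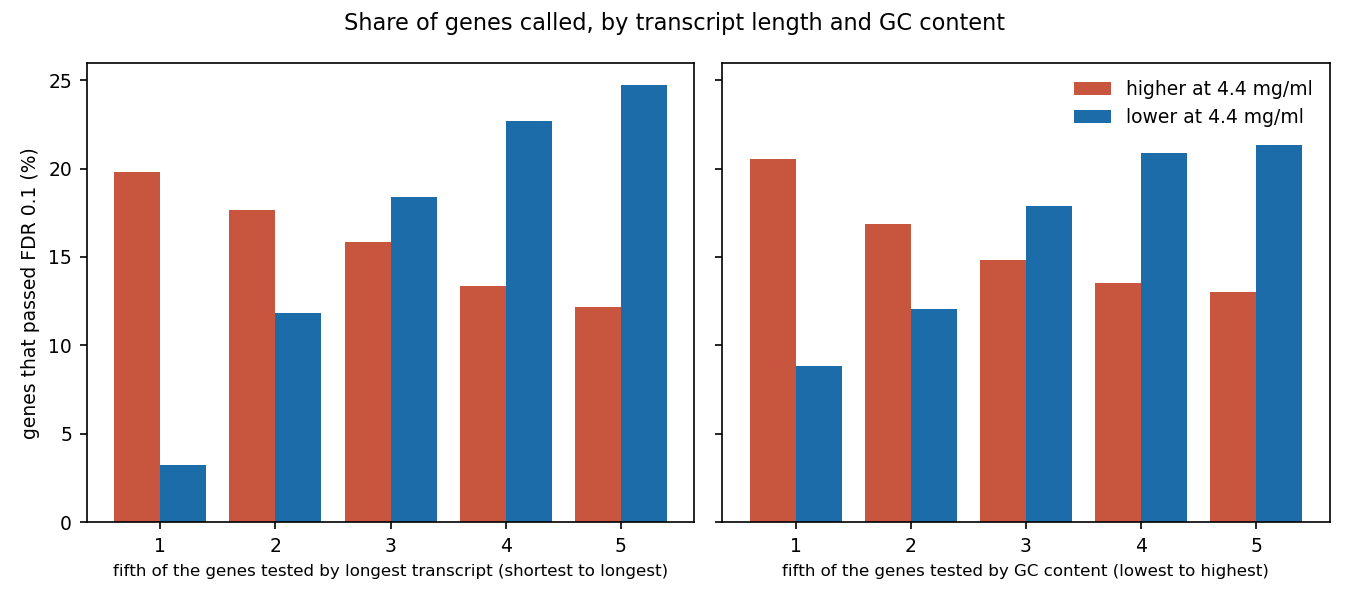
Share of genes that passed FDR 0.1 (vertical axis, percent) among the genes tested, split into 5 equal sets by transcript length (left) and GC content (right), higher and lower at 4.4 mg/ml as separate bars. The share of lower genes climbs from 3.25% in the shortest set to 24.7% in the longest, while the share of higher genes goes from 19.8% to 12.1%.

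The densest gel was also set against the other gels. The contrast holds gel libraries only, but the suspension libraries entered the fit through the spread and the replicate terms. Against 3.5 mg/ml, its neighbor in density, 0 of 13844 genes (0%) passed edgeR's test, although 1448 had an unadjusted p under 0.05 and DESeq2 called 261. Against the mean of 1.7, 2.6 and 3.5 mg/ml 626 genes passed, 413 of them higher (2.98%) and 213 lower (1.54%). Replicate 2 at 4.4 mg/ml carries much of this count, which was 13 without that library, 0 without replicate 2 of all groups, 1186 without replicate 1 at 4.4 mg/ml, and 3 without the block. It was 379 with only the libraries compared and 411 to 773 without a single suspension library, lowest without the one titled plus CCL19 of replicate 3. With total counts 385 genes passed and 41.8% of them were higher, in place of 66.0%, and the median log2 difference of all genes was -0.16.

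Chka was the gene with the smallest p here too. Its means were 86.9, 139 and 132 CPM at 1.7, 2.6 and 3.5 mg/ml, and its log2 difference between 4.4 mg/ml and the other gels was 1.25 (SE 0.16, adjusted p = 0.00204). Every 4.4 mg/ml library was above the range of the other gels, 76.2 to 169 CPM. Egr1 had means of 1.32, 2.89 and 1.9 CPM in the other gels and a log2 difference of 3.22 (SE 0.42, adjusted p = 0.00204). Rasgef1b had means of 4.07, 6.29 and 7.08 CPM and a log2 difference of 2.38 (SE 0.32, adjusted p = 0.00204). Replicate 3 of both genes at 4.4 mg/ml lay inside the range of the other gels. Snn, stannin, a small membrane protein, was lower at 4.4 mg/ml, with means of 15.2, 15.9 and 14.6 CPM in the other gels and a log2 difference of -1.57 (SE 0.26, adjusted p = 0.00761), and Nbeal2 had means of 74, 60.6 and 40.9 CPM and a log2 difference of -1.56 (SE 0.29, adjusted p = 0.0167). Replicates 2 and 3 of Snn at 4.4 mg/ml lay inside the range of the other gels, while Nbeal2 lay under it in every replicate. Without replicate 2 at 4.4 mg/ml the calls of Chka, Egr1, Mx2, Rasgef1b, Cmpk2 and Snn held, and those of Hbegf, Tbc1d10c, Nbeal2, Tlr9, Zadh2 and Chst14 did not, with adjusted p of 0.128, 0.2, 0.223, 0.2, 0.252 and 0.243. Without replicate 2 of all groups none of the 12 passed.

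By list, 13 of 24 immediate-early genes were higher at 4.4 mg/ml than in the other gels, and 19 of 31 interferon-stimulated genes (median 0.98). The shares of all genes tested for this contrast were 2.98% higher and 1.54% lower. The comparisons of each density with suspension share the control libraries, so their values are only set side by side. For interferon-stimulated genes the median log2 fold changes against suspension were 0.01, 0.00 and 0.01 at 1.7, 2.6 and 3.5 mg/ml and 1.14 at 4.4 mg/ml. For immediate-early genes they were 0.35, 0.73, 0.46 and 1.59. Without replicate 2 at 4.4 mg/ml, 4 interferon-stimulated and 1 immediate-early gene were higher than in the other gels. Mx2, with means of 15.1, 17.6 and 22.4 CPM in the other gels, had a log2 difference of 1.92 (SE 0.25, adjusted p = 0.00204), and Cmpk2, a nucleotide kinase induced by interferon, with means of 9.44, 10.4 and 14.8 CPM, had one of 1.67 (SE 0.25, adjusted p = 0.00516). Replicates 2 and 3 of Mx2 and Cmpk2 at 4.4 mg/ml lay inside the range of the other gels. The other lists had fewer calls, with 7 of 22 cytokines higher and 1 lower, 6 of 20 costimulatory ligands higher, 5 of 23 glycolysis genes higher, 5 of 15 phosphatases higher, 4 of 21 chemokines higher, 4 of 21 chaperones higher and 2 of 28 centrosome genes lower. Hspa4l, which rose against suspension, was at means of 165, 348 and 239 CPM in the other gels and did not pass there (log2 difference 0.05, SE 0.34, adjusted p = 0.96), and Cep250 had means of 39.3, 43.2 and 33.1 CPM and a log2 difference of -0.80 (SE 0.24, adjusted p = 0.0943).

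**Figure D5:**
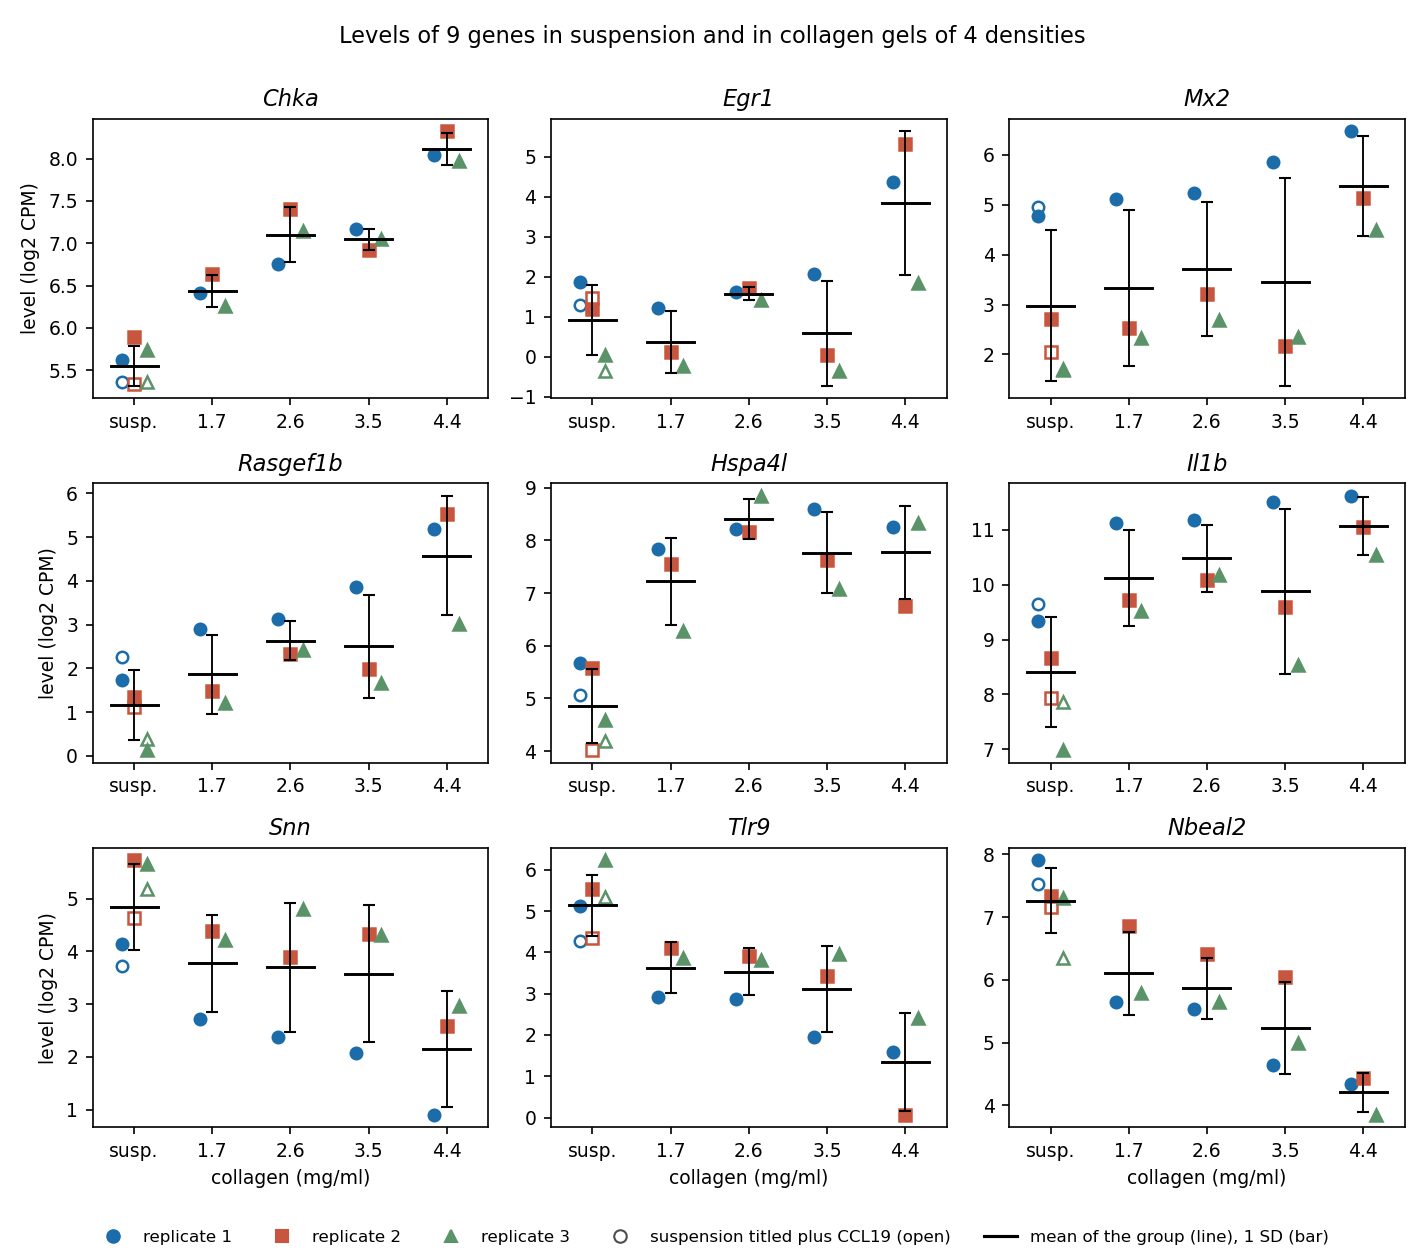
Levels in log2 CPM (vertical axis) of 9 genes in suspension and in collagen gels of 4 densities in mg/ml (horizontal axis), with symbols for replicates, the group mean as a line and 1 SD as a bar. Chka at 4.4 mg/ml is above all other gels in each replicate, Hspa4l at 4.4 mg/ml lies among the other gels, and the Mx2 libraries of replicate 1 are the highest in every group.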

How the data were processed

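RNA was measured in 18 libraries, 3 in each of 6 groups, sequenced from stranded messenger RNA as 50-base single-end reads. Per the labels the authors aligned the reads with STAR 2.7.0f to GRCm38. The deposited values are raw gene counts for 29875 genes, and the methods name RSEM for TPM values without saying which tool made these counts. Symbols and gene positions come from the GENCODE annotation of GRCm38, in which 29866 of these genes had a symbol. Promoters come from RefSeq (GRCm38.p6). Counts were fitted with edgeR 4.0.16 (quasi-likelihood F-test, TMM, filterByExpr) in R 4.3.3 over all 18 libraries, with the 6 groups and the replicate number as terms. The contrasts were 4.4 mg/ml minus the mean of both suspension groups, minus 3.5 mg/ml, and minus the mean of the other gels, at a Benjamini-Hochberg FDR of 0.1. SE is the fold change divided by the root of F. The fit was tested on simulated counts. The biological coefficient of variation was 33.1%, and 3 counts equal 0.107 to 0.23 CPM, which covers counting error only.

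Replicate numbers mark a shared date and lane in the library names. Deviations from the group means correlated at a mean of 0.43 between libraries of the same number (45 pairs, lowest -0.15) and at -0.21 between different numbers (90 pairs). Among the 4.4 mg/ml and suspension libraries alone the same-number mean was 0.41 (9 pairs), and the lowest pair was among them. Against the other gels of its number, replicate 2 at 4.4 mg/ml had a macrophage sum of 6011 CPM beside 1803 to 2693 CPM. Its neutrophil sum was 1540 CPM beside 4053 to 5481 CPM. For replicates 1 and 3 the macrophage sums were 4796 beside 5505 to 6594 CPM and 2473 beside 1022 to 2233 CPM. The cause was not tested.

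The 57 gene lists and the comparison itself were chosen with earlier results of these data known. Named were the 12 largest rises and 12 largest falls among genes that moved alike in all 3 replicates at a mean log2 CPM of at least 1, up to 4 members per list and direction by p, 6 genes per direction against the other gels, Dyrk3, Chka and the markers. From the 285 called genes that this gave, 98 are in the text, and members whose calls were lost under many alternatives were mostly left out after their values were seen, so the genes shown are steadier than the rest. A few named results are not reported here. Tnf, Il6, Slc2a1, Ldha, Myh9, Pcnt, Fos and Jun were added after their values were seen. Alternatives were DESeq2 1.42.0, DESeq2 size factors, total counts, no filter, FDR 0.05, no block, only the libraries compared, GC and length offsets, either control title alone, and leaving out libraries. Total counts and leaving out single suspension libraries were chosen after seeing the data.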

Additional observations from a re-analysis of the deposited data

Results flagged for a closer look

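In the 6 suspension libraries, a library was set apart by Dixon's test at 95%, which compares its gap to the nearest other library with the range of the group and which chance meets in about 1 of 20 groups. Of 122 items 5 met it. For Zbtb46 the gap was 0.691 of the range, with the library titled without CCL19 of replicate 2 at 6.03 log2 CPM and the others at 5.22 to 5.47. The library titled plus CCL19 of replicate 2 stood apart for the other 4. S1pr4 was at 5.60 log2 CPM there and at 3.31 to 4.11 elsewhere (0.650 of the range). Arhgef18 was at 4.90 and 3.28 to 3.88 log2 CPM (0.629), and Mmp9 at 8.01 and 6.07 to 6.76 log2 CPM (0.644). The summed neutrophil markers were at 10276 CPM there and at 795 to 4177 CPM elsewhere (0.643). Without that library the calls of S1pr4, Arhgef18 and Mmp9 held. Their part in the results was not tested further.

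The effect of 4.4 mg/ml differed from that of the other densities for 626 genes by edgeR's test of the difference itself, with the dependence on replicate 2 given above.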

How the results depend on the processing

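The count of genes against suspension was 4420, was 2054 without the replicate block, and was 2553 to 4584 with a replicate or a library left out, lowest without replicate 1 of all groups. Under the other settings it stayed within 1.5 times. Against 3.5 mg/ml the count of 0 became 261 with DESeq2, 411 with no filter and 11 with GC and length offsets, and ranged from 0 to 342 with libraries left out. Against the other gels the count of 626 became 214 at FDR 0.05, 1484 with DESeq2, 1236 with no filter, 3 without the replicate block, 379 with only the libraries compared, 1443 with GC and length offsets and 385 with total counts, and ranged from 0 to 1186 with libraries left out. The rule for named genes picked 285 called genes, of which 127 passed in all 22 alternatives and 131 lost their call without the replicate block. The text gives 106 called genes, picked in part for calls that held, so that 80 of them passed in all 22 alternatives is no measure of stability. Of the 187 called genes of the rule that the text leaves out, 51 did. Among the 106, the block changed no direction, and 19 lost their call without it: Dusp10, Hmox1, Pgk1, Slc2a1, Ldha, Ankrd37, Ptges, Mx2, Itgax, Flt3, Ccrl2, Arhgef18, Flna, Mmp14, Mmp9, Rrp1b, mt-Co1, Fcgr1 and Cmpk2. Reversals were limited to 2 genes that had not passed, Ccr7 at -0.013 with controls titled plus CCL19 only, -0.16 with total counts and -0.064 to 0.25 with a replicate or library left out, and Zbtb46 at -0.0057 with total counts. Counts of list members stayed within 1.5 times in 1905 cases and moved in 603. The cause of these changes was not tested. A gene at 3 counts or fewer in a library cannot be told from absent, and 3 libraries per group limit what can be called.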

Other observations

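Other lists had the following calls at 4.4 mg/ml against suspension, where 15.8% of all genes tested were higher and 16.2% lower. Of 20 amino acid transporters 7 were higher and 3 lower, of 17 BCL2 family genes 4 were higher and 1 lower, of 14 inflammasome and pyroptosis genes 5 were higher, and of 15 RGS and SOCS feedback inhibitors 4 were higher and 2 lower. Of 21 mechanosensitive and volume-regulated channels 4 were higher and 3 lower, of 31 constitutive proteasome genes 3 were higher, and of 34 nuclear genes of oxidative phosphorylation 6 were higher and 1 lower. Of 30 cell cycle genes 2 were higher and 6 lower. The 6 became 10 without replicate 1 and 2 without replicate 2 or 3 at 4.4 mg/ml, 3 without the suspension library titled plus CCL19 of replicate 2 or 3 or titled without CCL19 of replicate 3, and 0 without the block. Of 5 apolipoprotein L genes, which interferon induces, 3 were higher (median log2 fold change 2.83), and 1 without replicate 2 at 4.4 mg/ml. Without replicate 2 at 4.4 mg/ml the higher counts were 3 for amino acid transporters, 1 for channels and 2 for RGS and SOCS genes, and without replicate 3 they were 1 for the BCL2 family and 2 for oxidative phosphorylation. The BCL2 count was 1 or 2 without a suspension library of replicate 1 or 3, and that of the proteasome was 6 without the library titled without CCL19 of replicate 3. None of the Xist and Y-linked genes (5 tested) passed.

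mt-Co1, a mitochondrially encoded subunit of cytochrome oxidase, was at 802, 1937 and 3811 CPM in suspension and 7096, 5106 and 3679 CPM at 4.4 mg/ml (log2 fold change 1.48, SE 0.31, adjusted p = 0.00258), and 2 of the 7 mitochondrially encoded genes tested were higher. Actg1, cytoplasmic γ-actin, was at 1.57, 3.24 and 3.55 CPM and 8.17, 15.6 and 7.99 CPM (log2 fold change 1.84, SE 0.30, adjusted p = 0.000429). These levels are low for an abundant message with many processed copies in the genome, so the value is uncertain. U90926, a transcript with no assigned function here, was at 0.348, 6.1 and 24.7 CPM and 76.6, 201 and 24.4 CPM (log2 fold change 4.19, SE 0.61, adjusted p = 0.000164). Jrk fell from 1.99, 5.34 and 8.29 CPM to 0.496, 0.427 and 1.05 CPM (log2 fold change -2.92, SE 0.53, adjusted p = 0.000895) and Fam78a from 2.95, 4.73 and 11.7 CPM to 0.993, 0.854 and 0.55 CPM (log2 fold change -2.91, SE 0.63, adjusted p = 0.00314), both with no overlap between the groups.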
